A study of Mus musculus with 22 samples.

Results

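The galectins are lectins that bind β-galactosides on the sugar chains of glycoproteins. The genes described here are 4 galectin genes, Lgals1, Lgals3, Lgals8 and Lgals9, and Lgals3bp, which encodes galectin-3-binding protein, a secreted glycoprotein of the scavenger receptor family that is a ligand of galectins and not itself a galectin. They were taken as a family by name and make up 5 of the 21995 genes measured. RNA was sequenced from whole spinal cords of C57BL/6 mice, with 1 library per mouse. The aging comparison set 8 old wild-type males at 18–24 months against 8 young wild-type males at 3–4 months, in libraries made by the Roche KAPA HyperPrep method. The ALS comparison set 3 SOD1-G93A mice against 3 wild-type control mice, all labelled as 5–6 months old, in libraries made with Illumina TruSeq. The SOD1-G93A line expresses mutant human superoxide dismutase, found in inherited amyotrophic lateral sclerosis (ALS), from a high-copy transgene. By the study's methods it was kept on a C57BL/6 background with copy number monitored, and each group of the ALS comparison held both sexes. Libraries were assigned to groups by their column names and are numbered within a group only as names.

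Galectins act both outside and inside the cell. Secreted galectins crosslink glycoproteins on the cell surface and so change the clustering, adhesion and survival signals of immune cells, while in the cytosol galectin-3, galectin-8 and galectin-9 gather on lysosomes whose membranes have broken and exposed the sugars on the inner face. In the central nervous system galectin-3 is best known as a protein of phagocytic and activated microglia and infiltrating macrophages, and galectin-1 as a product of astrocytes, some neurons and endothelium.

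The members differ in how many galectin folds they carry. Galectin-1 has a single carbohydrate-binding domain and pairs with itself. Galectin-3 joins such a domain to a long flexible proline- and glycine-rich tail. Galectin-8 and galectin-9 are tandem-repeat proteins with a pair of different domains. A short stretch at the heart of the sugar-binding site, His, any residue, Asn, Pro and Arg in order, was searched for as codons in the longest coding transcript of each gene (GENCODE M21), and the windows below show the stretch and its surroundings, because the tandem-repeat members each hold 2 sites, where Lgals1 and Lgals3 hold 1. Capitals mark the codons of the motif, the sequences run 5′ to 3′ on the coding strand, and each carries 15 bases on either side.
Lgals1: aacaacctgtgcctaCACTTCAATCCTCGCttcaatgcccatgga
Lgals3: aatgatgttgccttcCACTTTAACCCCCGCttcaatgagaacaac
Lgals8 site 1: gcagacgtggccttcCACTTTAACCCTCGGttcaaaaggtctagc
Lgals8 site 2: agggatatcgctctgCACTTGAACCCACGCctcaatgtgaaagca
Lgals9 site 1: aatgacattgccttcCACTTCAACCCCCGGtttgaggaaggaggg
Lgals9 site 2: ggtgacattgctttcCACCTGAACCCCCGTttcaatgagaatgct
Counted from the first base of the start codon, the motif begins at base 133 of Lgals1, base 514 of Lgals3, bases 190 and 709 of Lgals8, and bases 178 and 793 of Lgals9. Lgals3bp holds none in its 1731 coding bases. Across 21562 mouse coding sequences the motif was found in 35 (0.162%), and 3 gene symbols held 2 or more copies.

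On the mouse genome build GRCm38, Lgals1 (ENSMUSG00000068220) lies at chr15:78926725-78930465 on the plus strand and Lgals3 (ENSMUSG00000050335) at chr14:47367751-47386160 on the plus strand. On the minus strand, Lgals9 (ENSMUSG00000001123) lies at chr11:78962974-78984946, Lgals3bp (ENSMUSG00000033880) at chr11:118392751-118402092 and Lgals8 (ENSMUSG00000057554) at chr13:12439415-12464944. Lgals8 overlaps Heatr1 on the opposite strand, and whether counting used strand was not stated, so reads of Heatr1 in the shared stretch cannot be told apart from those of Lgals8. The other 4 genes overlap no annotated gene. Lgals1 has processed pseudogenes, not analysed here, and reads shared with them make its value less certain.

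Total counts ran from 5078092 to 9358055 in the young libraries, from 5664869 to 9145600 in the old, from 10693060 to 13219797 in the controls and from 9675610 to 11872431 in the SOD1-G93A libraries. At these depths 3 counts correspond to at most 0.591 CPM (counts scaled to library size), and every member was above that level in every library and passed the filter on low counts in both comparisons. CPM values below are scaled by the trimmed mean of M-values (TMM) library sizes of each comparison, so CPM levels are set against each other within a comparison and not across the pair. The labelled tissue bore its markers, with 6 motor neuron markers summing to between 136.3 and 280.8 CPM and 6 oligodendrocyte markers to between 24027 and 30281 CPM, while 6 skeletal muscle markers summed to at most 5.25 CPM. The human transgene was not analysed here.

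In aging, 4 of the 5 genes rose and Lgals8 did not pass the test. Lgals3 rose by far the most, followed by Lgals3bp, with smaller rises of Lgals9 and Lgals1. Among all 13647 genes tested, 13.5% were higher in old mice and 12.9% were lower at an adjusted p under 0.05 (edgeR's quasi-likelihood test, adjusted by Benjamini-Hochberg over every gene in the fit). The old and young libraries did not overlap for the 4 genes that rose, and 3.66% of all genes tested were higher in this way. With the study's added requirement of a log2 fold change above 1, 2 of the 5 genes were called, Lgals3 and Lgals3bp, against 2.18% of genes.

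Lgals3, which encodes galectin-3, was nearly silent in young cords. Its level in young mice was 1.96 CPM at the lowest, 2.78 at the median and 4.10 at the highest, which rested on 14 to 29 counts per library. In old mice it was 20.8 CPM at the lowest, 63.7 at the median and 74.2 at the highest. The lowest old library was thus above every young library. The fold change was 20.5 (95% interval 14.9 to 28.2), a log2 fold change of 4.36 with an SE of 0.22 and an adjusted p of 2.48e-12 in edgeR's quasi-likelihood test. Only 10 of the 13647 genes tested had a larger log2 fold change, so that Lgals3 ranked 11.

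Lgals3bp was measured at 22.8, 23.8 and 26.6 CPM (lowest, median, highest) in young mice and at 62.0, 77.5 and 94.7 CPM in old mice. The young libraries lay close together and the old libraries were all well above them. The rise was 3.17-fold (95% interval 2.85 to 3.52), a log2 fold change of 1.67 with an SE of 0.07 and an edgeR adjusted p of 4.81e-13. Lgals9, the tandem-repeat galectin that binds Tim-3 (Havcr2) on immune cells, was measured at 8.15, 11.5 and 13.5 CPM in young mice and at 15.7, 19.3 and 24.4 CPM in old mice. The nearest young and old libraries were only a short distance apart, yet none crossed. Its rise was 1.69-fold (95% interval 1.46 to 1.94, log2 fold change 0.75, SE 0.10, edgeR adjusted p 4.48e-06).

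Lgals1, the dimeric single-domain galectin, was measured at 26.3, 31.2 and 34.5 CPM in young mice and at 39.6, 51.0 and 57.5 CPM in old mice. It rose 1.61-fold (95% interval 1.45 to 1.79) with a log2 fold change of 0.69, an SE of 0.07 and an edgeR adjusted p of 2.71e-07. In an exact two-sided permutation test of mean log2 CPM, the p for each of the 4 genes that rose was 0.000155, the smallest that 12870 arrangements of 8 against 8 mice allow. Lgals8, whose protein marks damaged vacuoles and recruits the autophagy receptor NDP52, was measured at 54.0, 62.5 and 64.0 CPM in young mice and at 52.2, 60.2 and 66.5 CPM in old mice. These ranges lay almost on top of each other. The old-to-young ratio was 0.976 with a 95% interval of 0.905 to 1.05 (edgeR adjusted p 0.677).

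**Figure D1:**
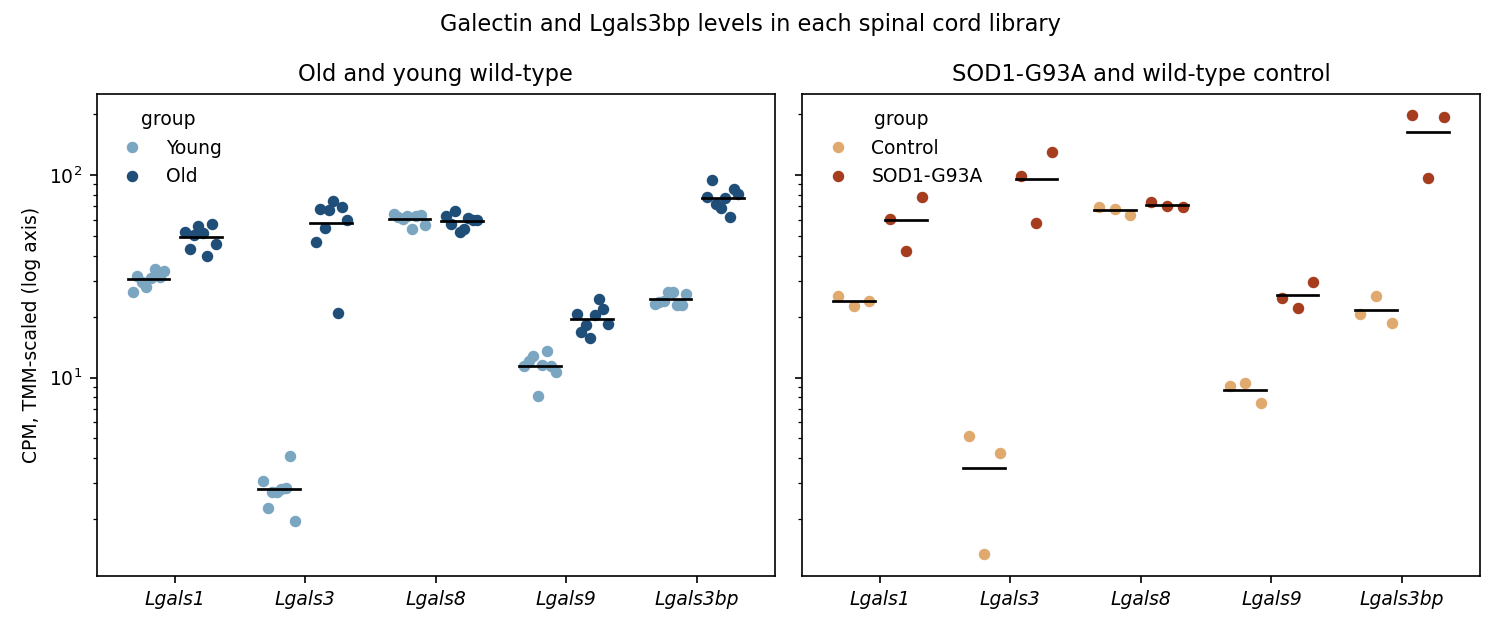
Level of each gene in each library, in TMM-scaled CPM on a log axis, with old and young mice on the left and SOD1-G93A and control mice on the right. Each point is 1 library and the black line is the group mean. Old libraries of Lgals3 reach from 20.8 to 74.2 CPM against 1.96 to 4.10 in young libraries, whereas the Lgals8 points of the groups overlap in both panels.

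In SOD1-G93A spinal cord the same 4 genes rose against their own controls, and Lgals8 again did not pass the test. Of 14386 genes tested, 18.4% were higher and 15.5% were lower at an adjusted p under 0.05, and 8.5% were higher with a log2 fold change above 1, a requirement that all 4 genes met. All 3 SOD1-G93A libraries were above all 3 controls for these 4 genes, as for 25.7% of all genes tested. With 3 mice against 3 the exact permutation test cannot go below 0.1, and each of the 4 genes had that p. Counted over the 13610 genes tested in both comparisons, 8.69% were higher in both, as were these 4 members.

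Lgals3 was measured at 5.12, 1.35 and 4.23 CPM in the 3 control libraries, from 54, 16 and 55 counts, and at 99.6, 57.9 and 129.9 CPM in the 3 SOD1-G93A libraries. Control library 2 was well below the other controls and SOD1-G93A library 2 well below the other SOD1-G93A libraries, but the groups remained far apart. The fold change was 27.0 (95% interval 14.1 to 51.6), a log2 fold change of 4.76 with an SE of 0.41 and an edgeR adjusted p of 0.000182, and its rank was 64 of 14386. Lgals3bp was measured at 20.7, 25.3 and 18.6 CPM in controls and at 197.3, 96.5 and 193.8 CPM in SOD1-G93A mice. The lowest SOD1-G93A library was again library 2. The rise was 7.55-fold (95% interval 4.96 to 11.5, log2 fold change 2.92, SE 0.27, edgeR adjusted p 0.000228).

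Lgals9 was measured at 9.11, 9.43 and 7.45 CPM in controls and at 24.8, 21.96 and 29.8 CPM in SOD1-G93A mice. Its libraries were clearly separated, and the rise was 2.95-fold (95% interval 2.30 to 3.79, log2 fold change 1.56, SE 0.16, edgeR adjusted p 0.000313). Lgals1 was measured at 25.3, 22.6 and 23.8 CPM in controls and at 60.4, 42.2 and 78.1 CPM in SOD1-G93A mice. The controls were tight and the SOD1-G93A libraries spread widely, and the rise was 2.52-fold (95% interval 1.85 to 3.43, log2 fold change 1.33, SE 0.20, edgeR adjusted p 0.00183). Lgals8 was measured at 69.9, 67.9 and 63.5 CPM in controls and at 73.9, 70.4 and 69.3 CPM in SOD1-G93A mice. In CPM 1 SOD1-G93A library fell within the range of the controls, and the ratio was 1.06 with a 95% interval of 0.935 to 1.20 (edgeR adjusted p 0.443).

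An edgeR fit of all 22 libraries tested, by an interaction term, whether the rises were of different size in the 2 comparisons. The rise was larger in ALS than in aging for 3 of the 5 genes, where 11.6% of 14502 genes tested had a more positive change in ALS and 14.2% a more negative change. For Lgals3bp the log2 fold change in ALS exceeded that in aging by 1.23 (SE 0.22, edgeR adjusted p 0.000188), a ratio of the folds of 2.34 (95% interval 1.72 to 3.18). For Lgals9 the excess was 0.78 (SE 0.19, adjusted p 0.00289, ratio 1.72 with an interval of 1.32 to 2.24), and for Lgals1 it was 0.62 (SE 0.18, adjusted p 0.0118, ratio 1.54 with an interval of 1.19 to 1.99). The Lgals1 difference rested on the SOD1-G93A library with the most Lgals1: without library 3 it was 0.40 with an edgeR adjusted p of 0.0935. For Lgals3, the gene with the largest rise in both comparisons, the difference was 0.37 (SE 0.51, adjusted p 0.639) and the ratio of folds was 1.29 with an interval of 0.629 to 2.65, so a sizeable difference either way lies within the interval. Without Control library 2, in which Lgals3 was lowest, that difference was −0.02. For Lgals8 the difference was 0.09 (SE 0.09, adjusted p 0.509, ratio 1.07 with an interval of 0.933 to 1.22). Library kit, sex mix and age of the controls coincide with the experiment, so their part in these differences cannot be told apart from that of disease and age.

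**Figure D2:**
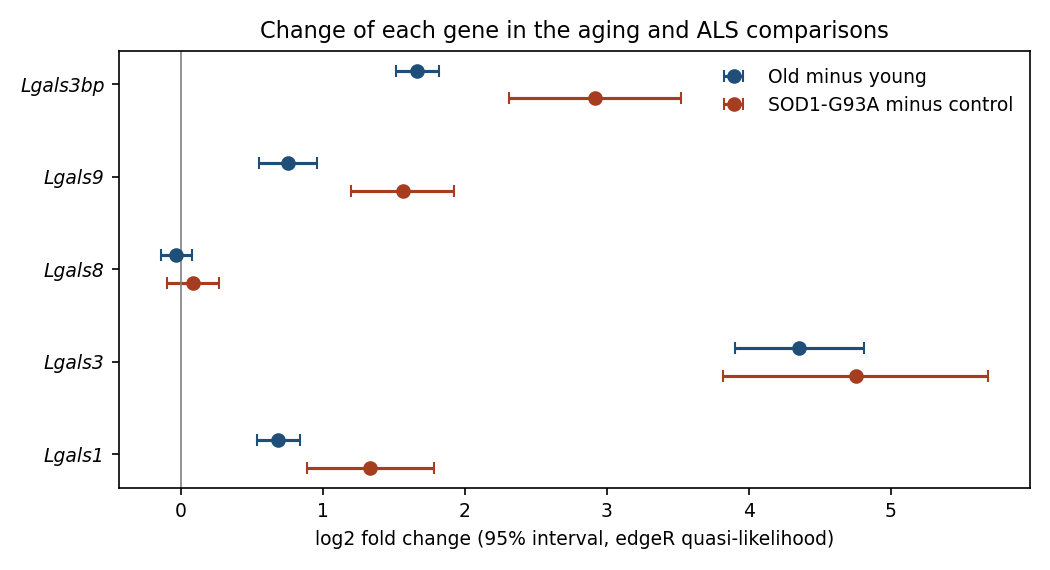
Log2 fold change of each gene, old minus young (blue) and SOD1-G93A minus control (red), with 95% intervals from edgeR's quasi-likelihood fit and a vertical line at 0. The red points of Lgals3bp, Lgals9 and Lgals1 lie to the right of the blue points, the intervals of Lgals3 overlap broadly at 4.36 and 4.76, and both Lgals8 intervals include 0.

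The changes altered the order of the galectins in the tissue. Levels can be ranked between genes only per transcript length, so FPKM values, in which fragments are divided by the length of the transcript and the size of the library, were recovered from the log2 table of the authors. In young cord the order was Lgals1 at 37.7 ± 3.15 FPKM (mean ± SD, n = 8), Lgals8 at 26.3 ± 2.77, Lgals3bp at 14.2 ± 2.18, Lgals9 at 7.37 ± 0.929 and Lgals3 at 2.74 ± 0.635. Each gene was above the next in 8 of 8 libraries, and Lgals3 was last. In old cord Lgals1 stood at 60.7 ± 8.88 FPKM and Lgals3 at 56.6 ± 18.3, and these neighbours did not differ beyond their spread, with Lgals1 the higher in 5 of 8 libraries. Lgals3bp followed at 48.1 ± 6.69, below Lgals3 in 7 of 8 libraries, and then Lgals8 at 26.6 ± 2.01 and Lgals9 at 12.7 ± 1.51 FPKM, each below its neighbour in 8 of 8. Lgals3bp also lay within the spread of Lgals3. Galectin-3 transcripts thus moved from the last place to a place among the leading genes.

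In control cord of the ALS experiment Lgals8 at 29.7 ± 2.25 FPKM (n = 3) and Lgals1 at 29.1 ± 1.62 were not separated, since Lgals8 was the higher in only 1 of 3 libraries. Lgals3bp at 11.5 ± 2.68, Lgals9 at 5.80 ± 1.06 and Lgals3 at 3.43 ± 1.90 FPKM followed in that order in 3 of 3 libraries. In SOD1-G93A cord Lgals3bp at 95.6 ± 37.0 and Lgals3 at 95.1 ± 35.9 FPKM led and were not separated, with Lgals3bp the higher in 1 of 3. Lgals1 at 75.8 ± 22.8 was below Lgals3 in 3 of 3 libraries, but in library 2 it was level with Lgals3bp, at 53.63 against 53.62 FPKM. Lgals8 at 34.0 ± 1.32 and Lgals9 at 16.9 ± 2.83 FPKM were each below the gene before them in 3 of 3 libraries. In FPKM, unlike CPM, the lowest SOD1-G93A library for Lgals8, at 32.52, was just above the highest control, at 32.16. That change did not pass with limma on log2(FPKM + 1), at an adjusted p of 0.156. Of the summed FPKM of the 4 galectins, the mean share of Lgals3 was 3.70% in young and 35.1% in old mice, and 5.03% in controls and 41.9% in SOD1-G93A mice. The share of Lgals8, whose own level did not pass either test, was 35.5% in young, 17.4% in old, 43.7% in control and 16.2% in SOD1-G93A mice.

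**Figure D3:**
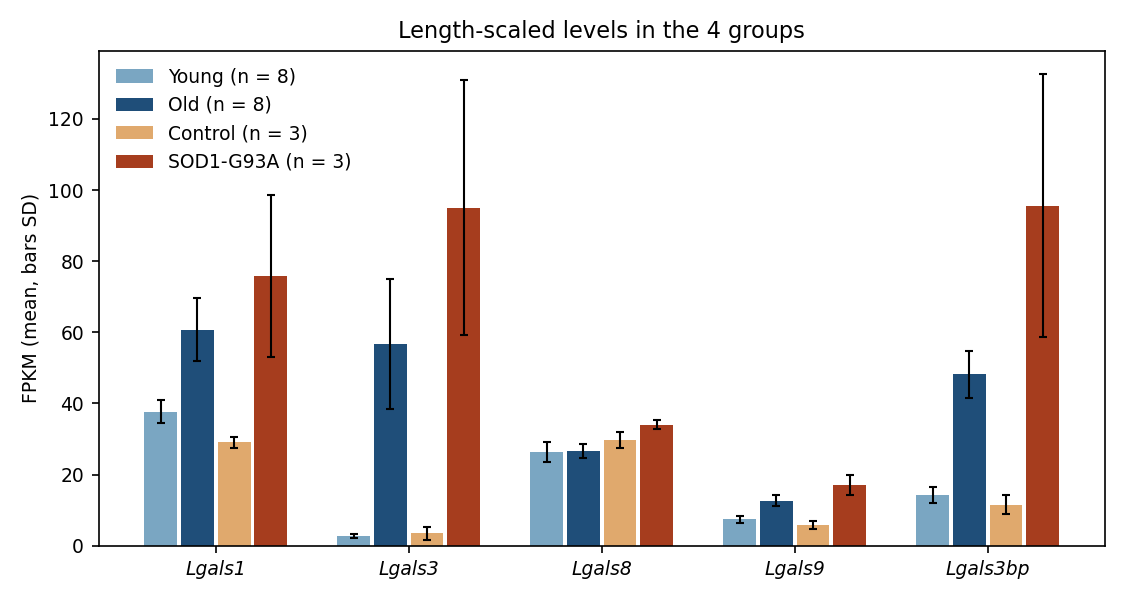
Mean FPKM of each gene in the 4 groups, with bars showing the SD over 8 young, 8 old, 3 control and 3 SOD1-G93A libraries. Lgals3 is the shortest bar in the young and control groups, at 2.74 and 3.43 FPKM, and is near the tallest in the old and SOD1-G93A groups, at 56.6 and 95.1 FPKM.

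The mice of a group did not all stand at the same level. Old library 6 had the least Lgals3 of the old mice (20.8 CPM), and also the least Lgals1 (39.6 CPM) and Lgals3bp (62.0 CPM), but the most Lgals9 (24.4 CPM). It also had the lowest summed level of 10 microglial marker genes among the old mice, 499.6 CPM where the other 7 lay between 621.3 and 734.6 CPM, and the highest summed level of 6 neuronal markers, 6334 CPM. In ALS, SOD1-G93A library 2 was lowest in Lgals1, Lgals3, Lgals9 and Lgals3bp. Its microglial marker sum was 1134 CPM against 1472 and 1760 CPM in the others, and its neuronal marker sum was 4364 CPM against 2623 and 3001 CPM. The part of these differences in the galectin levels was not tested.

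Correlations among the 5 genes, and of each with the microglial markers, were computed within the old mice and within the young mice, 30 in all. None of the 30 passed after Benjamini-Hochberg adjustment, and 5 had an unadjusted exact permutation p under 0.05 for Pearson's r and 2 for Spearman's rho. The closest relation was that of Lgals3 with the microglial markers in old mice (n = 8), with r = 0.93 (exact permutation p = 0.0183, adjusted 0.272) and rho = 0.83 (exact permutation p = 0.0154, adjusted 0.453). Leaving out the 2 mice farthest from the median of Lgals3, of which Old library 6 was 1, gave r = 0.85. Without Old library 6 alone r was 0.47 (n = 7, exact permutation p = 0.288) and rho was 0.75 (exact permutation p = 0.0663), so Pearson's r was lower without that mouse while rho moved less. Lgals3 and Lgals3bp, the ligand pair, had r = 0.68 and rho = 0.50 in old mice (exact permutation p = 0.0758 and 0.216, adjusted 0.272 and 0.540), and r = 0.29 without the 2 farthest mice.

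Markers of several cell types moved with the galectins. Of the 10 microglial markers, 8 were higher in old mice and none was lower (edgeR adjusted p under 0.05), and their summed level ran from 355.3 to 398.1 CPM in young and from 499.6 to 734.6 CPM in old mice. In ALS 7 of the 10 were higher, and the sum ran from 373.6 to 441.6 CPM in controls and from 1134 to 1760 CPM in SOD1-G93A mice. None of the 10 was at 0. P2ry12 and Sall1 passed the test in neither comparison, at 24.1 and 58.4 CPM in young and 24.9 and 57.9 CPM in old mice. Tmem119 rose 1.45-fold in aging and did not pass in ALS (edgeR adjusted p 0.00141 and 0.0599). The rest of the list rose in both, among them Cx3cr1 (1.88-fold in aging, 3.76-fold in ALS) and Gpr34 (1.65-fold and 3.22-fold). In whole tissue, more cells of a type and more RNA per cell cannot be told apart.

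Of 7 astrocyte markers, 3 were higher and 1 was lower in old mice and 5 were higher in SOD1-G93A mice, with sums of 7238 to 7845 CPM in young, 8135 to 8953 in old, 6687 to 7274 in control and 12349 to 19086 CPM in SOD1-G93A mice. The 8 markers of border macrophages and monocytes summed to at most 6.36 CPM in young, 10.1 in old, 4.56 in control and 19.2 CPM in SOD1-G93A mice. None of these 8 passed the filter on low counts in aging. In ALS 4 were tested and 2 were higher, the mannose receptor gene Mrc1 and Ms4a7. Mrc1 averaged 0.758 CPM in control and 1.99 CPM in SOD1-G93A mice, and Ms4a7 0.0561 and 7.33 CPM. Genes this low in controls pass the filter through the SOD1-G93A libraries, so this count is no separate result. The rest of the 8 were too low to test. The 5 T-cell markers summed to between 0.194 and 0.707 CPM in young and between 0.729 and 2.56 CPM in old mice. Their sum ran from 0.154 to 0.854 CPM in control and from 1.10 to 1.34 CPM in SOD1-G93A mice. No T-cell marker passed the filter on low counts in either comparison. Cd3d and Cd4 were at 3 counts or fewer in every young and old library, and Cd3g in every control and SOD1-G93A library. In ALS 5 of 6 neuronal markers and 4 of 6 motor neuron markers were lower. The part of these cell type differences in the galectin changes was not tested.

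Set against the microglial marker sum, the genes fell into different patterns. This scaling was chosen after the data were seen, and a sum of CPM gives the most weight to its most abundant markers. As a percentage of the sum, Lgals3 had a median of 0.758% in young and 9.42% in old mice, and of 1.13% in control and 5.66% in SOD1-G93A mice. Lgals3bp had medians of 6.46% in young and 11.6% in old mice, and of 4.98% in control and 11.2% in SOD1-G93A mice. For both genes the groups stayed apart on this scale, but how many of all genes do so was not counted. The difference in mean log2 ratio, old minus young, was 3.49 (SE 0.20) for Lgals3 and 0.84 (SE 0.06) for Lgals3bp. Each had an exact permutation p of 0.000155. In ALS the differences were 3.04 (SE 0.62) and 1.01 (SE 0.24), each with the smallest exact permutation p the design allows, 0.1.

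Lgals9 and Lgals1 gave no such separation in aging. Per microglial marker, Lgals9 had medians of 3.02% in young and 2.92% in old mice, a difference in mean log2 ratio of −0.04 (SE 0.15, exact permutation p = 0.821). Lgals1 had medians of 8.33% and 7.77%, a difference of −0.13 (SE 0.07, exact permutation p = 0.0940). In ALS the Lgals9 groups overlapped, at medians of 2.06% in control and 1.94% in SOD1-G93A mice (difference −0.28, SE 0.19, exact permutation p = 0.2). The Lgals1 medians there were 5.83% and 3.72%, and the difference was −0.55 (SE 0.20, exact permutation p = 0.1). Lgals1 itself rose in the tissue, and the marker sum rose more, so this lower share is no separate fall of Lgals1. Lgals8, whose level in the tissue passed neither test, had medians of 16.7% in young, 8.73% in old, 17.01% in control and 4.71% in SOD1-G93A mice, shares that restate the rise of the sum and are no separate result.

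**Figure D4:**
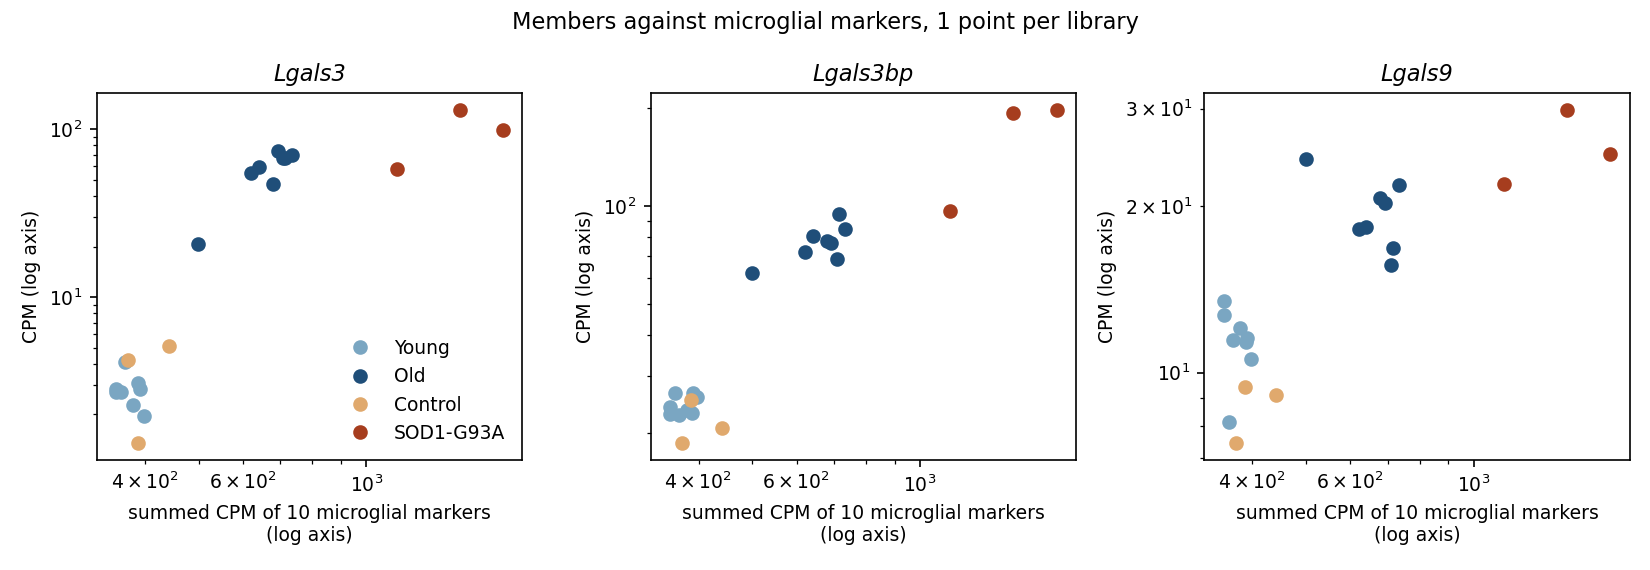
Level of Lgals3, Lgals3bp and Lgals9 in CPM against the summed CPM of 10 microglial markers, both on log axes, with 1 point per library and colours for the 4 groups. CPM was scaled within each comparison, so points of different experiments are not compared in level. Old library 6 is the old point farthest to the left, at a marker sum of 499.6 CPM.

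The remaining galectin genes gave a different picture. The table held 6 others, of which Lgalsl, Lgals4 and Grifin were abundant enough to test in at least 1 comparison, and none passed a test. Lgalsl, which encodes a galectin-related protein that lacks the sugar-binding motif above, was at 57.3 ± 4.44 CPM in young and 52.9 ± 2.58 CPM in old mice (SD, n = 8, edgeR adjusted p 0.0948), and at 64.7 ± 3.50 CPM in control and 75.3 ± 17.9 CPM in SOD1-G93A mice (n = 3, edgeR adjusted p 0.292). Lgals4, a tandem-repeat galectin of the gut, was at 2.32 CPM in young and 2.34 CPM in old mice (edgeR adjusted p 0.934) and at 3.87 CPM in control and 6.10 CPM in SOD1-G93A mice (edgeR adjusted p 0.0817). The lens gene Grifin was tested in ALS alone, at 0.515 CPM in control and 1.32 CPM in SOD1-G93A mice (edgeR adjusted p 0.0838). Lgals2, Lgals7 and Lgals12 averaged under 1 CPM in every group, and Lgals7 had no count in the 6 libraries of the ALS experiment.

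Glycoproteins that carry galectin ligands moved in the same experiments. Of 20 surface and lysosomal glycoproteins tested, 12 rose and 3 fell in aging, with a median log2 fold change of 0.50 where all genes tested had a median of −0.0027, and 15 rose and 3 fell in ALS, with a median of 1.41 where all genes had 0.0031. The shares of all genes tested were 13.5% higher and 12.9% lower in aging, and 18.4% higher and 15.5% lower in ALS. The microglial lipid receptor gene Trem2, whose protein binds galectin-3, rose 5.15-fold in aging and 13.7-fold in ALS (edgeR adjusted p 1.48e-11 and 8.14e-05). The integrin chains Itgb2 and Itgam of the phagocyte complement receptor rose 4.71-fold and 2.001-fold in aging and 10.2-fold and 4.39-fold in ALS (edgeR adjusted p 5.81e-10, 4.66e-10, 8.14e-05 and 8.14e-05). The hyaluronan receptor gene Cd44 rose 2.01-fold in aging and 6.62-fold in ALS (edgeR adjusted p 2.22e-09 and 0.000228). Ptprc, which encodes the leukocyte phosphatase CD45, a ligand of galectin-1, rose 2.94-fold in aging and 7.33-fold in ALS (edgeR adjusted p 2.96e-08 and 9.35e-05). The genes that fell in aging were Nid1, Kdr and Alcam, with ratios of 0.556, 0.738 and 0.815 (edgeR adjusted p 2.45e-05, 0.0148 and 0.000292). Those that fell in ALS were Nid1, Kdr and Thy1, with ratios of 0.669, 0.526 and 0.719 (edgeR adjusted p 0.0181, 0.0113 and 0.0130). Several genes of this list are expressed by microglia and so are not separate from the microglial markers above.

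Enzymes that build or trim the sugar chains showed smaller movements. Of 11 tested, 5 rose and 1 fell in aging (median log2 fold change 0.12, all genes −0.0027), and 6 rose and none fell in ALS (median 0.41, all genes 0.0031). Of all genes tested, 13.5% rose and 12.9% fell in aging, and 18.4% rose and 15.5% fell in ALS. B4galt1, which adds the galactose that galectins bind, rose 1.72-fold in aging and 4.48-fold in ALS (edgeR adjusted p 0.000237 and 0.000614). Gcnt1, which starts core 2 branches on O-linked chains, rose 2.99-fold and 5.63-fold (edgeR adjusted p 1.91e-06 and 0.00168). St6gal1, which caps galactose with the sialic acid that blocks galectin-1, rose 1.15-fold in aging and 1.46-fold in ALS (edgeR adjusted p 0.0156 and 0.0152). The branching enzyme gene Mgat4b rose 1.16-fold and 1.33-fold (edgeR adjusted p 0.0250 and 0.0187). Another branching enzyme gene, Mgat5, was the 1 that fell in aging, with a ratio of 0.906 (edgeR adjusted p 0.0310). Its ratio in ALS was 0.881 and did not pass (edgeR adjusted p 0.159). The mannosidase genes Man1a and Man2a1 rose 1.75-fold and 1.66-fold in ALS (edgeR adjusted p 0.00246 and 0.0149). In aging Man1a rose 1.16-fold and Man2a1 did not pass (edgeR adjusted p 0.0356 and 0.224).

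Genes of the response to damaged lysosomes, in which galectin-3, galectin-8 and galectin-9 act, had medians close to those of all genes. Of 17 tested, 4 rose and 1 fell in aging (median log2 fold change 0.03) and 2 rose and 3 fell in ALS (median −0.04). The ALS counts were near the shares of all genes given above, 18.4% higher and 15.5% lower, and so are not a result about the list. The shares of all genes in aging were 13.5% higher and 12.9% lower. In aging the Rag GTPase gene Rragc rose 1.20-fold, the autophagy receptor gene Sqstm1 1.16-fold and the ESCRT gene Chmp4b 1.12-fold, and the autophagy receptor gene Tax1bp1 had a ratio of 0.840 (edgeR adjusted p 0.000105, 0.000561, 0.00600 and 0.00162). In ALS Mtor, Tax1bp1 and the autophagy kinase gene Ulk1 had ratios of 0.740, 0.813 and 0.803, and Lamtor1, a scaffold of mTORC1 on lysosomes, rose 1.22-fold (edgeR adjusted p 0.0137, 0.0204, 0.0326 and 0.0332). Rragc also rose 1.21-fold in ALS, and Lamtor1 1.13-fold in aging (edgeR adjusted p 0.0366 and 0.0305). Calcoco2, the mouse gene named for the NDP52 receptor that galectin-8 recruits, was at 3 counts or fewer in every library.

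The genes whose patterns were nearest to those of each member were found by the root mean square difference of log2 CPM over all 22 libraries, each library taken against the mean of its own controls, among 13610 genes. For Lgals3 these were Igfbpl1 (0.450), the chemokine gene Ccl3 (0.752) and the macrophage lysozyme gene Lyz2 (0.773). These differences were larger than those of the nearest genes to the other members, but the measure is not scaled to the size of the change. Lgals3 had the largest change of the members and few counts in young and control libraries, so its larger differences are no separate result. For Lgals3bp they were the cathepsin gene Ctss (0.158), Plek (0.199), which encodes pleckstrin, and Cyth4 (0.200). For Lgals1 they were the glutathione peroxidase gene Gpx1 (0.139), the lysosomal carboxypeptidase gene Ctsa (0.146) and Msn (0.151), which encodes the membrane linker moesin. For Lgals9 they were the SNARE gene Vamp8 (0.180), Msn again (0.188) and Shisa5 (0.201), and for Lgals8 they were Metap2 (0.0541), Tm9sf3 (0.0645) and Morf4l2 (0.0689). Msn was thus on the lists of both Lgals1 and Lgals9, with log2 fold changes of 0.68 in aging and 1.51 in ALS.

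Promoter sequences, from 250 bases before to 50 bases after a listed start, were held by the RefSeq table (GRCm38.p6) for 4 of the 5 members, all but Lgals1. The listed starts lie inside the gene spans given above. For Lgals3 (chr14:47373760-47373859), Lgals8 (chr13:12461739-12461838) and Lgals3bp (chr11:118401960-118402059) even the 100 bases before the listed start lie wholly inside the span. The window searched for Lgals3bp reached past the end of its span, but the outer starts of Lgals3 and Lgals8 were not searched. Both strands were searched for the core of the interferon-stimulated response element (a pair of GAAA words on the same strand with 2 bases between them), the STAT core (TTCNNNGAA), the AP-1 core (TGANTCA), the CLEAR E-box (CACGTG) and the PU.1 core (GAGGAA). Lgals9 held the interferon-stimulated core at −55 to −46 and at 15 to 24 from the listed start, both on the minus strand of the promoter. The windows searched for Lgals3, Lgals8 and Lgals3bp held none of it. Of 32851 mouse promoters 3.44% held it and 0.225% held 2 or more. The PU.1 core, present in 28.3% of promoters, was found in Lgals9 and Lgals3bp. The other 3 cores, in 8.3%, 7.81% and 7.15% of promoters, were found in none of the 4. The 100 bases before the listed start of Lgals9 (chr11:78984925-78985024, minus strand) are shown because its window alone held the interferon-stimulated core. Capitals mark the upstream copy.
Lgals9: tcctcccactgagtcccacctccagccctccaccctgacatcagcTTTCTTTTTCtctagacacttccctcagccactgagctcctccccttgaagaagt
These matches describe the letters of the sequence and do not show that a factor binds there.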

How the data were processed

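Whole spinal cord RNA was sequenced from 22 mice. The authors aligned reads with STAR, summarized them with RSEM on an Ensembl annotation of the mm10 genome, and deposited expected counts per gene without normalization, here all whole numbers. SAMtools 1.3 is named in the submitters' processing notes. The authors also deposited log2 values, log2(FPKM + 1), of which 304 were above 0 where the count was 0. All sample columns were used. They give the group and no replicate number.

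Each comparison was fitted alone. Genes passed filterByExpr of edgeR 4.0.16 (minimum count 10, minimum total 15), libraries were scaled by TMM, and the quasi-likelihood test was applied in R 4.3.3 with p-values adjusted by Benjamini-Hochberg over every gene in the fit and a threshold of 0.05. The procedure was tested on simulated data. Log2 CPM used a prior count of 2. Exact permutation tests were two-sided. For any 2 libraries of a group, chi-square per degree of freedom over genes did not fall under 2.52, so libraries differed by more than counting error and none were counted as duplicates. The mice are separate animals. A level of 3 counts, the floor of detection, equals 0.227 to 0.591 CPM.

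The members, a family taken by name, and the lists were chosen with earlier results of these data known. Named genes were all members, other galectins with counts, up to 4 genes per list and comparison with the smallest adjusted p, and the 3 nearest genes per member. Genes of the glycoprotein, sugar-chain enzyme and damaged-lysosome lists that fell were named as well. Tests and alternatives included DESeq2 1.42.0, limma 3.58.1, other scalings and filters, a sex term and each library left out.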

Additional observations from a re-analysis of the deposited data

Results flagged for a closer look

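Lgals1, Lgals9 and Lgals3bp rose by different amounts in the 2 comparisons. Their log2 fold change in ALS exceeded that in aging by 0.62, 0.78 and 1.23, by the interaction term of edgeR's quasi-likelihood test. Library kit, sex mix and control age coincide with the experiment and cannot be told apart from this difference.

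Lgals3 in Old library 6, at 4.40 on the log2 CPM scale, stood below the other old mice. Its gap to the nearest mouse was 0.638 of the range of the group, where the critical value for 8 mice is 0.526. Of 10 groups of values looked at in this way, chance would mark about 1 in 20. The microglial marker sum was also lowest in this mouse, and its part was not tested.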

How the results depend on the processing

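Of 325 values of the 5 genes under other settings, 322 kept their direction and their side of the threshold. With the study's added requirement of a log2 fold change above 1, the number of genes called in aging was 2. The Lgals8 change in aging was 0.0167 with limma on log2(FPKM + 1). The Lgals3 difference between ALS and aging ran from −0.0241 without Control library 2 to 0.68 without Control library 1, and the Lgals1 difference was 0.40 with an edgeR adjusted p of 0.0935 without SOD1-G93A library 3, where 2 genes differed between the comparisons. The cause was not tested. With each library left out in turn, the log2 fold change of Lgals3 ran from 4.29 to 4.48 in aging and from 4.36 to 5.07 in ALS, and 4 genes were called in every case. No paired analysis was possible because the columns carry no replicate numbers. Depth limits Lgals3 most, since its young libraries held 14 to 29 counts and its controls 16 to 55.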
